A study of Drosophila melanogaster with 4 samples.

Results

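The genes described here are 56 characterised genes of Drosophila melanogaster whose log2 ratio lay below 0 on every one of 4 arrays and averaged -0.2 or lower. They were chosen by these same ratios, so their ratios are a description and carry no test. A gene was called characterised where the array annotation listed 1 symbol for a spot and that symbol was not CG plus digits, which held for 1464 of 2377 named genes. Of these, 92 were left out by name or by symbol prefix (among them cytochrome P450, cuticle, chemosensory, ribosomal and respiratory chain genes), and the 56 are members of the remaining 1372.

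Both groups were adult Oregon-R females, 10 to 20 days after emergence, kept at 60% relative humidity with 16 h light and 8 h dark; 23 °C is named for 3 of the 4 arrays. The extract group was sprayed in a Potter's tower, which gives an even topical dose, with 2 mL of Piper nigrum (black pepper) seed ethyl acetate extract at 0.9 mg/mL in 99% ethanol, and the ethanol group with 2 mL of 99% ethanol only. RNA was taken 4 h later from pools of about 240 whole flies, and the question was which transcripts differ after contact with this botanical insecticide. The labels number the pools 1 and 3, and each pool was hybridised with the extract RNA in Cy3 and again with it in Cy5, so that n = 2 pools throughout.

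Each array gave 1 ratio for each of 16896 spots, and all 4 array medians lay within 0.0022 of 0. The ratios were read as deposited, extract over ethanol; the sources used here do not settle this direction or the log base, which was taken as 2. Ethanol on top would turn every sign below. Had the ratios been deposited by dye, a gene with 1 sign in both dye orientations would hold a dye difference, and the extract difference would be the value with the 2 reverse-label (extract in Cy5) arrays turned, up to its sign. That turned value is given beside the main results. Over all spots, the 6 pairs of arrays correlated at a Pearson r of 0.0187 to 0.0881, a description across spots that share labelling and array design. The table holds ratios and no signal, so whether a tissue marker is expressed was not readable, and fewer cells of a type cannot be told apart from less RNA per cell.

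The 56 genes belong to several cell functions. Wnt and Hedgehog proteins carry lipids and need dedicated membrane proteins to leave the cell that makes them, and glypicans with heparan sulphate chains hold them at the surface of the cells they reach. The GTPase Ran and its exchange factor Rcc1 give nuclear import and export their direction. GATOR1 is a complex that holds back the growth kinase complex TORC1 when amino acids are scarce. The SAGA, ATAC, TFIID and Paf1 complexes act on histones and on RNA polymerase II at genes, and the nucleolus makes ribosomal RNA.

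The means of the 56 genes ran from -0.39 to -0.20 with a median of -0.25. On the assumed log base, the lowest mean is 76.1% of equal signal and the median 84.2%. The standard error of limma, which shares variance across all features, ran from 0.15 to 0.17, and 6 of the 56 means lay more than 2 standard errors below 0. None of the 56 passed limma across all 13607 features (0 of 56 at an adjusted p under 0.05, where 0.0147% of all features passed below 0). At an unadjusted p under 0.05 there were 2 of 56 by this fit, where 2.93% of all features and 1.09% of the 2377 named genes lay below 0, and 18 of 56 by the fit on 4 arrays with the replicate block, where 5.09% of all features and 3.03% of the named genes lay below 0. The rule used this contrast, so nothing is read from these counts. Of the 2377 named genes 7.99% lay below 0 on all 4 arrays and 4.88% did so with a mean of -0.2 or lower. The 56 are 4.08% of the 1372. As deposited, 48.5% of the 2377 named genes and 48.7% of the 1372 had a mean below 0. Every count of list genes below 0 given further on stands beside these shares. In the opposite direction, above 0 on all 4 arrays with a mean of 0.2 or higher, there were 81 of 1372, or 5.9%.

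**Figure D1:**
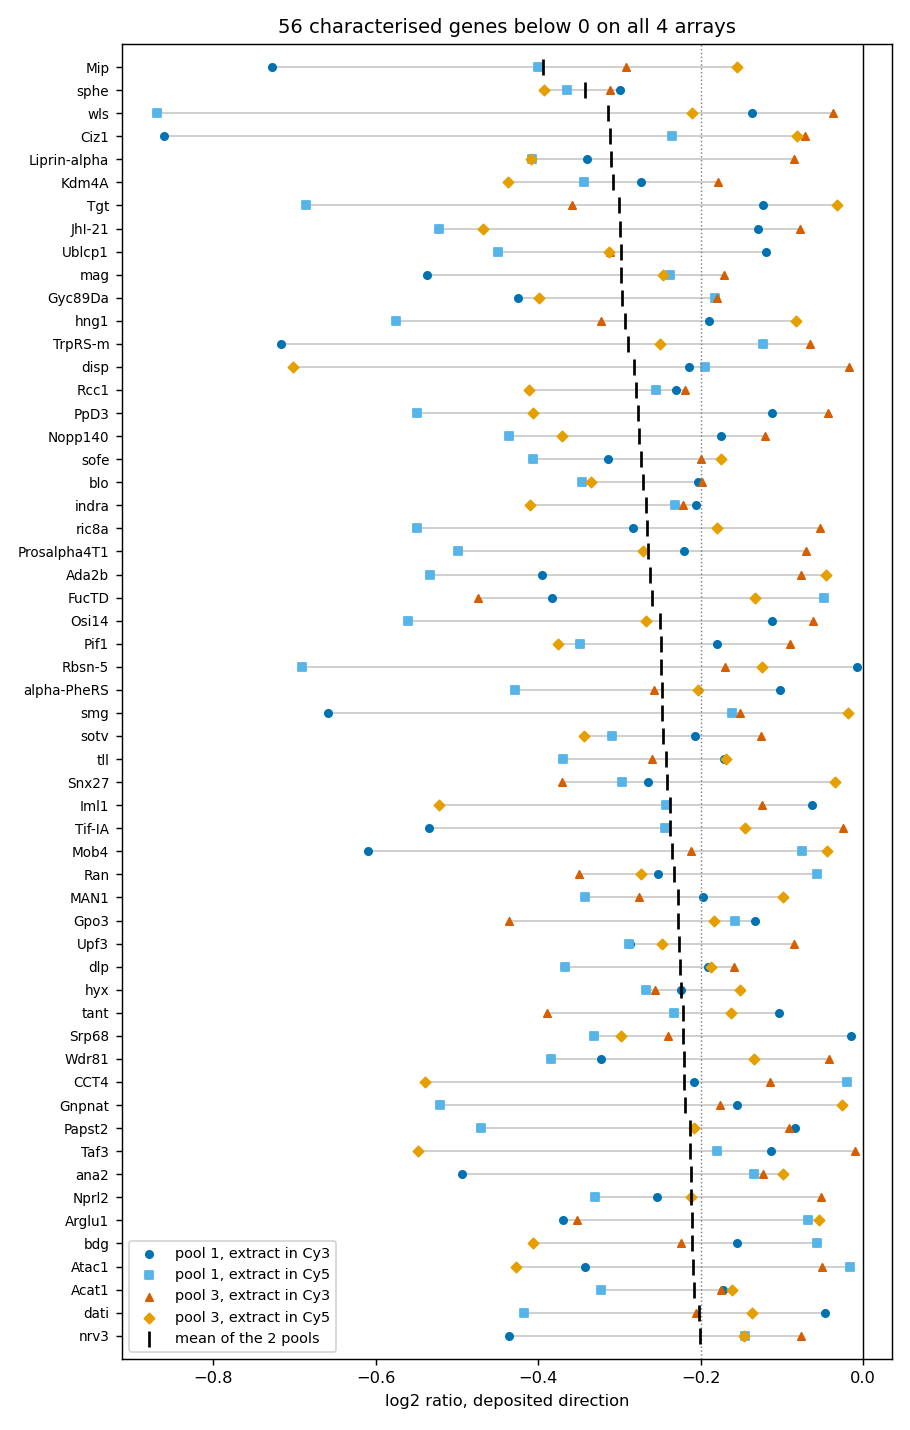
Log2 ratio (horizontal axis, deposited direction) of each of the 56 genes (rows, lowest mean at the top) on each of the 4 arrays, with the mean of the 2 pools as a black tick and the mean of -0.2 as a dotted line. Every point lies left of 0; sphe has the narrowest spread over arrays, 0.094, and wls the widest, 0.83.

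The arrays did not contribute equally. The array of pool 1 with extract in Cy5 gave the lowest ratio for 27 of the 56 genes, against 13 for pool 3 in Cy5, 11 for pool 1 in Cy3 and 5 for pool 3 in Cy3. The last of these, which also had the smallest median absolute deviation over all spots (0.186, against 0.225 to 0.261 on the others), gave the ratio nearest to 0 for 25 genes. The pool mean was lower in pool 1 for 41 genes and in pool 3 for 15. The spread of 1 gene over arrays had a median of 0.36, which is larger than most of the means, and 18 genes had an array above -0.05.

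**Figure D2:**
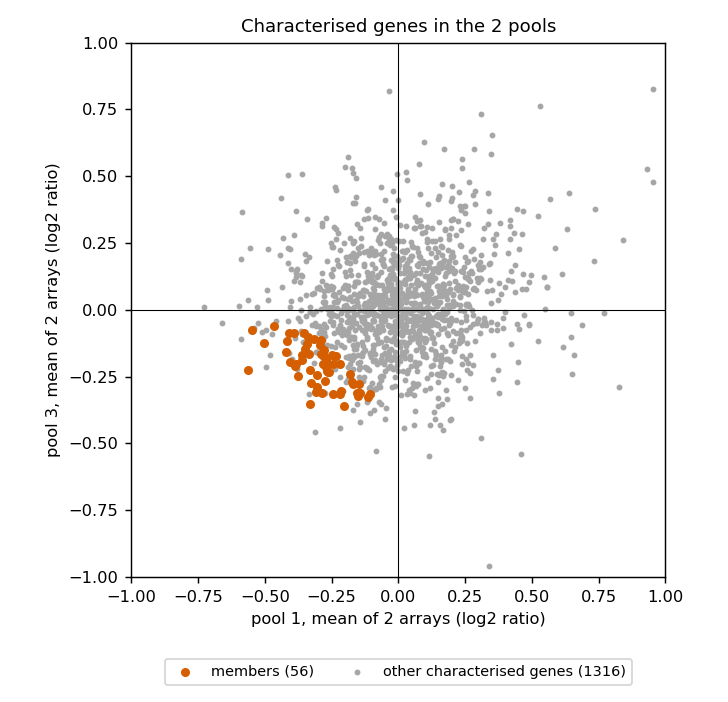
Mean log2 ratio in pool 3 (vertical axis) against pool 1 (horizontal axis) for the 56 genes (orange) and the other 1316 characterised genes (grey), each the mean of 2 arrays. The 56 lie toward the lower left by construction, and 15 genes beyond 1.0 on either axis are not drawn.

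When the sign of both reverse-label arrays was turned, the 56 means ran from -0.18 to 0.23 with a median of 0.046, 38 above 0 and 18 below. The 38 are the genes whose ratio was lower with extract in Cy5 than in Cy3. Over all 2377 named genes 49.2% had a turned mean below 0. Since the 4 signs were fixed by the rule, the turned mean of a member cannot be larger in size than its mean as deposited, and no member meets the rule when turned. Under the turned reading 44 other genes met it.

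**Figure D3:**
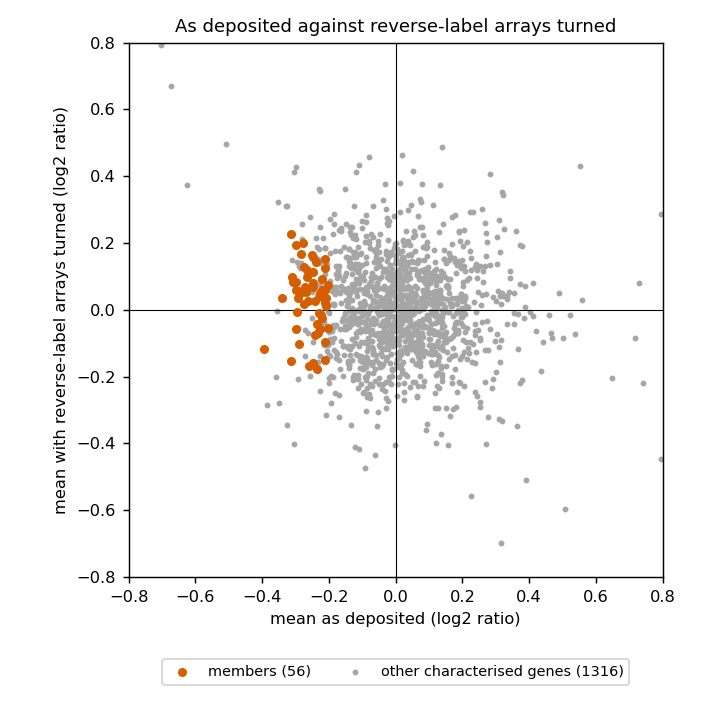
Mean log2 ratio with the 2 reverse-label arrays turned (vertical axis) against the mean as deposited (horizontal axis) for the 56 genes (orange) and 1316 other characterised genes (grey). The 56 lie left of -0.2 and between -0.18 and 0.23 on the vertical axis, and 8 genes beyond 0.8 on either axis are not drawn.

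Most of the genes were measured by 2 spots. Of the 53 genes with exactly 2, both spots averaged below 0 in 52, and the 2 spot means differed by a median of 0.12. Of 480 single spot values, 407 (84.8%) lay below 0, and 16 genes had every spot value below 0: Mip, sphe, Ciz1, Kdm4A, mag, Nopp140, sofe, indra, Prosalpha4T1, Pif1, alpha-PheRS, tll, Ran, MAN1, tant and Papst2. The exception among the 53 was nrv3, a beta subunit of the sodium pump, with -0.55 on one spot and 0.15 on the other. Tif-IA, FucTD, disp and Acat1 also rested mainly on 1 spot. Their spot means were -0.020 and -0.45, -0.47 and -0.049, -0.47 and -0.094, and -0.36 and -0.057. Among other genes, Iml1 (-0.090 and -0.39) and Atac1 (-0.34 and -0.079) were nearly as uneven.

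**Figure D4:**
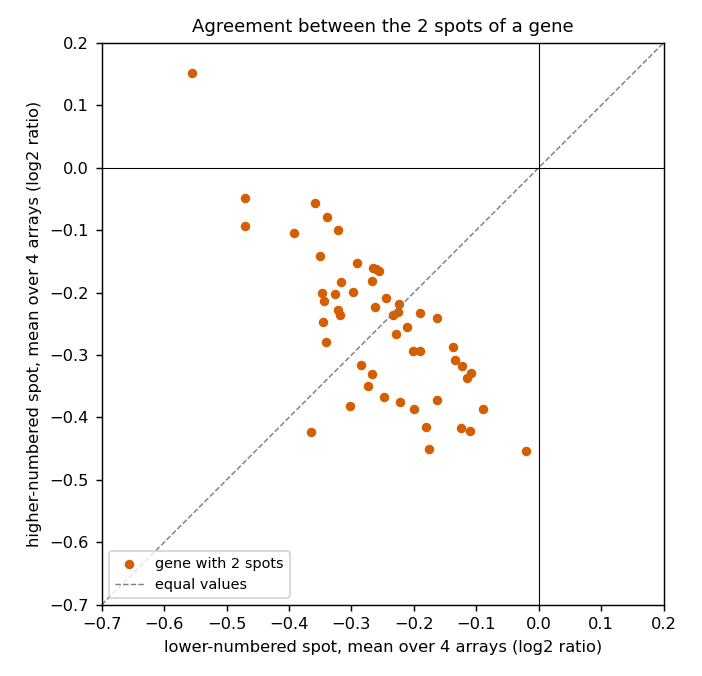
Mean over 4 arrays of the higher-numbered spot (vertical axis) against the lower-numbered spot (horizontal axis) for the 53 genes with 2 spots; both axes are log2 ratios and the dashed line marks equal values. All points but nrv3 lie below 0 on both axes, and since the rule bounds the average of the spots, a spot near 0 goes with one far below.

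Among secreted signals and their release, Mip had the lowest mean of the 56 genes. It encodes the myoinhibitory peptides, neuropeptides that also act on the sex peptide receptor. Values are given from here on as the array with extract in Cy3 and then in Cy5. Mip stood at -0.73 and -0.40 in pool 1 and -0.29 and -0.16 in pool 3, a mean of -0.39 ± 0.16 (limma standard error, n = 2) and -0.12 turned. Pool 1 lay lower than pool 3 in both dyes. Of the 5 measured genes in a list of 49 neuropeptides and peptide hormones, Mip was as deposited the only one with a mean below 0: ITP had 0.13, sNPF 0.12, FMRFa 0.11 and Nplp1 0.093, and each of these 4 had both signs among its arrays. On the turned reading ITP (-0.14) lay below Mip and FMRFa stood at -0.0042, so Mip was neither alone below 0 nor the lowest. None of the 5 passed limma in either direction. The 1 gene at an unadjusted p under 0.05 was Mip, chosen by the rule on these same ratios, so nothing is read from it.

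The gene sphe (spheroide), a serine protease homologue studied in Toll immune signalling, had the narrowest spread. It stood at -0.30 and -0.36 in pool 1 and -0.31 and -0.39 in pool 3, a mean of -0.34 ± 0.15 and 0.037 turned. All 4 arrays lay within 0.094 of each other, so no array or pool stood apart. Of 11 measured genes in a list of 79 for Toll, Imd and JAK/STAT immunity, which does not hold sphe, 7 had a mean below 0 and 0 passed limma in either direction, with 1 at an unadjusted p under 0.05; the list median was -0.016, against 0.0058 over all named genes. This list median was 0.0097 and -0.042 without the Cy3 and Cy5 arrays of pool 1 and 0.0040 and -0.054 without those of pool 3; turned, 8 of 11 means lay below 0 with a median of -0.067.

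Wntless and Dispatched, membrane proteins that send lipid-bearing morphogens out of the cell, were both among the 56. For wls (wntless), which carries Wnt proteins to the surface, the ratios were -0.14 and -0.87 in pool 1 and -0.037 and -0.21 in pool 3, a mean of -0.31 ± 0.16 and 0.23 turned. Its lowest ratio was on the Cy5 array of pool 1, and its mean was -0.13 without it. For disp (dispatched), which releases Hedgehog, they were -0.21 and -0.19 in pool 1 and -0.017 and -0.70 in pool 3, a mean of -0.28 ± 0.15 and 0.17 turned. Here the Cy5 array of pool 3 stood low, and the mean without it was -0.11. The glypican dlp (dally-like), a heparan sulphate proteoglycan that binds both morphogens, stood at -0.19 and -0.37 in pool 1 and -0.16 and -0.19 in pool 3, a mean of -0.23 ± 0.15. Its 4 ratios lay at -0.15 or lower, closer together than those of wls and disp.

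Further genes act on the sugar chains of such proteins. The heparan sulphate polymerase sotv stood at -0.21 and -0.31 in pool 1 and -0.13 and -0.34 in pool 3, a mean of -0.25 ± 0.15, with no array apart from the rest. Papst2, which brings the sulphate donor PAPS into the Golgi, had a mean of -0.21 (range -0.47 to -0.084), Gnpnat, an enzyme of UDP-N-acetylglucosamine supply, -0.22 (range -0.52 to -0.026) and the fucosyltransferase FucTD -0.26 (range -0.47 to -0.048). In a list of 27 genes of heparan sulphate, glypicans and hexosamine supply, drawn up after the values were seen, 12 were measured, 9 had a mean below 0 and 5 lay below 0 on all 4 arrays, these 4 genes (sotv, dlp, Gnpnat and Papst2) and botv at -0.063. The list median was -0.066, and -0.18 and -0.058 without the Cy3 and Cy5 arrays of pool 1 and -0.13 and -0.059 without those of pool 3. The other PAPS transporter, sll, had a mean of -0.25 but 0.041 on 1 array. Turned, 2 of 12 means lay below 0 with a median of 0.072. Among the 8 genes that are not of the 56, 5 lay below 0 as deposited, with a median of -0.037, and 2 when turned. Hs6st stood at -0.012, Gfat2 at 0.023 and Sulf1 at 0.047.

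Over the wider list of 196 genes of Notch, Wnt, Hedgehog, BMP, EGFR and Hippo signalling, 30 were measured and 19 had a mean below 0, with a median of -0.035. That median was -0.046 and -0.0073 without the Cy3 and Cy5 arrays of pool 1 and 0.0057 and -0.056 without those of pool 3, so its sign rests on the Cy3 array of pool 3; turned, 16 of 30 means lay below 0 with a median of -0.0017. None passed limma in either direction and 0 had an unadjusted p under 0.05. Outside the 56, dpp had a mean of -0.19, Cdep -0.18 and Rassf -0.15 at the low end, and flw 0.20 and bnl 0.24 at the high end.

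Several genes with low means act at the cell membrane. Liprin-alpha, a scaffold of synaptic active zones that binds the receptor phosphatase Lar, stood at -0.34 and -0.41 in pool 1 and -0.085 and -0.41 in pool 3, a mean of -0.31 ± 0.15 and 0.098 turned. The array nearest to 0 was the Cy3 array of pool 3, and the other 3 lay at -0.34 or lower. JhI-21, an amino acid transporter first found as inducible by juvenile hormone, stood at -0.13 and -0.52 in pool 1 and -0.078 and -0.47 in pool 3, a mean of -0.30 ± 0.15 and 0.20 turned. Its Cy5 arrays lay far below its Cy3 arrays in both pools. The sodium pump subunit nrv3 stood at -0.44 and -0.15 in pool 1 and -0.076 and -0.15 in pool 3, a mean of -0.20 ± 0.15, the highest of the 56, and its paralogue nrv2 had a mean of -0.022.

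In a list of 165 membrane transporters 28 were measured, with 10 below 0 and a median of 0.067. The median was 0.039 and 0.047 without the Cy3 and Cy5 arrays of pool 1 and 0.018 and 0.058 without those of pool 3. Turned, 15 of 28 means lay below 0 with a median of -0.033. None passed limma in either direction, with 1 at an unadjusted p under 0.05. The lowest means outside the 56 were those of gb (-0.18), Catsup (-0.14) and Tom40 (-0.14), and the highest those of Dic3 (0.33) and tomboy20 (0.37). The transporter gene bdg (bedraggled), of the SLC6 family, had a mean of -0.21 (range -0.41 to -0.056).

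Gyc89Da, an atypical soluble guanylyl cyclase that senses oxygen, stood at -0.43 and -0.18 in pool 1 and -0.18 and -0.40 in pool 3, a mean of -0.30 ± 0.15 and -0.0057 turned. Its 2 low arrays were of opposite dye, and the pool means of -0.30 and -0.29 were close. The related cyclase Gyc88E had a mean of -0.081 with both signs among its arrays. ric8a, a chaperone and exchange factor of G protein alpha subunits, had a mean of -0.27 (range -0.55 to -0.052). PpD3, the fly counterpart of the phosphatase PP5 that works with Hsp90, stood at -0.11 and -0.55 in pool 1 and -0.043 and -0.41 in pool 3, a mean of -0.28 ± 0.15 and 0.20 turned. As in JhI-21, both Cy5 arrays lay below both Cy3 arrays. Mob4, of the STRIPAK phosphatase and kinase complex, stood at -0.61 and -0.075 in pool 1 and -0.21 and -0.044 in pool 3, a mean of -0.24 ± 0.15, and -0.10 without the Cy3 array of pool 1.

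These 3 genes (Gyc89Da, PpD3 and Mob4) are in a list of 148 genes for kinase, phosphatase and cyclase signalling of other pathways. Of the 148 genes, 44 were measured and 20 had a mean below 0, with a median of 0.015. The median was 0.013 and 0.0016 without the Cy3 and Cy5 arrays of pool 1 and 0.0035 and -0.0071 without those of pool 3, and turned 25 of 44 means lay below 0 with a median of -0.016. None passed limma in either direction, with 3 at an unadjusted p under 0.05. Outside the 56, MKP-4 had the lowest mean, -0.67, which rests on a ratio of -2.81 on 1 array, followed by Pi3K59F at -0.26 and sff at -0.19. The highest means were those of RyR, a calcium release channel also placed on this list, at 0.41 and puc at 0.46.

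Among genes of chromatin and transcription, Kdm4A, a histone demethylase of methylated H3K9 and H3K36, stood at -0.27 and -0.34 in pool 1 and -0.18 and -0.44 in pool 3, a mean of -0.31 ± 0.15 and 0.082 turned. The pool means were equal to 2 decimals, -0.31 in both pools. hyx, the fly parafibromin of the Paf1 elongation complex, had the second narrowest spread, with -0.22 and -0.27 in pool 1 and -0.26 and -0.15 in pool 3 and a mean of -0.22 ± 0.15. Ada2b, a subunit of the SAGA histone acetyltransferase complex, stood at -0.40 and -0.53 in pool 1 and -0.076 and -0.046 in pool 3, a mean of -0.26 ± 0.16. The difference between its pools was wide, -0.46 in pool 1 and -0.061 in pool 3.

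Atac1, of the ATAC acetyltransferase complex, had a mean of -0.21 (range -0.43 to -0.016), and Taf3, of the TFIID initiation complex, -0.21 (range -0.55 to -0.010). In a list of 43 genes of SAGA, ATAC, TFIID and Paf1, drawn up after the values were seen, 7 were measured and 6 had a mean below 0 as deposited, with a median of -0.21. The median was -0.22 and -0.20 without the Cy3 and Cy5 arrays of pool 1 and -0.26 and -0.11 without those of pool 3, and turned 1 of 7 means lay below 0 with a median of 0.027. Besides the 4 chosen by the rule, Ada3 had -0.13, Hcf -0.12 and Taf13 0.32, and Taf13 lay above 0 on all 4 arrays. Turned, Ada3 had 0.25, Hcf 0.042 and Taf13 0.017. The SAGA gene Atxn7 was measured but is not on this list, and had -0.020 (0.067 turned). The list of 139 Polycomb, trithorax and chromatin genes had 23 measured, 16 of them below 0, a median of -0.046 and 0 past limma in either direction or at an unadjusted p under 0.05. The chromatin list's median was -0.017 and -0.11 without the Cy3 and Cy5 arrays of pool 1 and -0.012 and -0.055 without those of pool 3, and turned 16 of 23 means lay below 0 with a median of -0.068. There Asx had a mean of -0.33 and pzg -0.20, each with an array above 0, whereas Su(var)3-3 had 0.21 and Scm 0.11. tant (tantalus), whose product binds Asx, had a mean of -0.22 (range -0.39 to -0.10).

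Further DNA-binding proteins met the rule. tll (tailless), a nuclear receptor of the embryo and of neural stem cells, stood at -0.17 and -0.37 in pool 1 and -0.26 and -0.17 in pool 3, a mean of -0.24 ± 0.15. dati (datilografo), a zinc finger protein known from female mating behaviour, had a mean of -0.20 (range -0.42 to -0.047), and hng1, of the MADF family, stood at -0.19 and -0.58 in pool 1 and -0.32 and -0.083 in pool 3, a mean of -0.29 ± 0.15. Ciz1, named after a human zinc finger protein of DNA replication, stood at -0.86 and -0.23 in pool 1 and -0.071 and -0.082 in pool 3, a mean of -0.31 ± 0.17 and -0.16 without the Cy3 array of pool 1. In the list of 310 transcription factors 54 were measured and 27 lay below 0, with a median of 0.0058, 0 past limma and 2 at an unadjusted p under 0.05. This median was 0.0008 and -0.018 without the Cy3 and Cy5 arrays of pool 1 and 0.0071 and -0.0044 without those of pool 3, and turned 26 of 54 means lay below 0 with a median of 0.0031.

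The exchange factor Rcc1 and its GTPase Ran both met the rule. Rcc1 stood at -0.23 and -0.26 in pool 1 and -0.22 and -0.41 in pool 3, a mean of -0.28 ± 0.15 and 0.054 turned, and was among the 5 genes with the narrowest spread. Ran stood at -0.25 and -0.057 in pool 1 and -0.35 and -0.27 in pool 3, a mean of -0.23 ± 0.15 and -0.068 turned, with the Cy5 array of pool 1 nearest to 0. In a list of 23 genes of the Ran cycle, importins and exportins, drawn up after the values were seen, 14 were measured and 11 had a mean below 0, with a median of -0.11, which was -0.072 and -0.13 without the Cy3 and Cy5 arrays of pool 1 and -0.021 and -0.16 without those of pool 3. Outside the 56 these were 9 of 12, with a median over the 12 of -0.051. They were led by Karybeta3 at -0.29 and Ranbp21 at -0.23, each with an array above 0, whereas Apl had 0.20. On the turned reading 6 of these 12 had a mean below 0, and over the list 7 of 14 means lay below 0 with a median of 0.013. MAN1, a protein of the inner nuclear membrane, had a mean of -0.23 (range -0.34 to -0.098), and LBR, of the same membrane, -0.23 with 2 arrays above 0.

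Nucleolar genes made a further group. Nopp140, a phosphoprotein that shuttles small nucleolar RNPs, stood at -0.17 and -0.44 in pool 1 and -0.12 and -0.37 in pool 3, a mean of -0.28 ± 0.15 and 0.13 turned. indra, a zinc finger protein that binds ribosomal DNA, stood at -0.21 and -0.23 in pool 1 and -0.22 and -0.41 in pool 3, a mean of -0.27 ± 0.15; its Cy5 array of pool 3 was low and the other 3 lay at -0.23 to -0.21. Tif-IA, the initiation factor of RNA polymerase I, stood at -0.53 and -0.24 in pool 1 and -0.025 and -0.15 in pool 3, a mean of -0.24 ± 0.16. In a list of 33 nucleolar and ribosomal DNA genes, drawn up after the values were seen, all 8 measured genes had a mean below 0 as deposited, with a median of -0.21, which was -0.27 and -0.24 without the Cy3 and Cy5 arrays of pool 1 and -0.24 and -0.19 without those of pool 3. The 5 that are not of the 56 were Nop10 (-0.27), Nnp-1 (-0.18), Fib (-0.17), Nop60B (-0.17) and Non1 (-0.028), and each had an array above 0. Turned, 2 of these 5 lay below 0, and over the list 3 of 8 means lay below 0 with a median of 0.080. The list does not hold every measured gene of this kind. TAF1C-like and Nop17l, which are not on it, had means above 0 as deposited, 0.024 and 0.020 (0.19 and -0.069 turned).

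**Figure D5:**
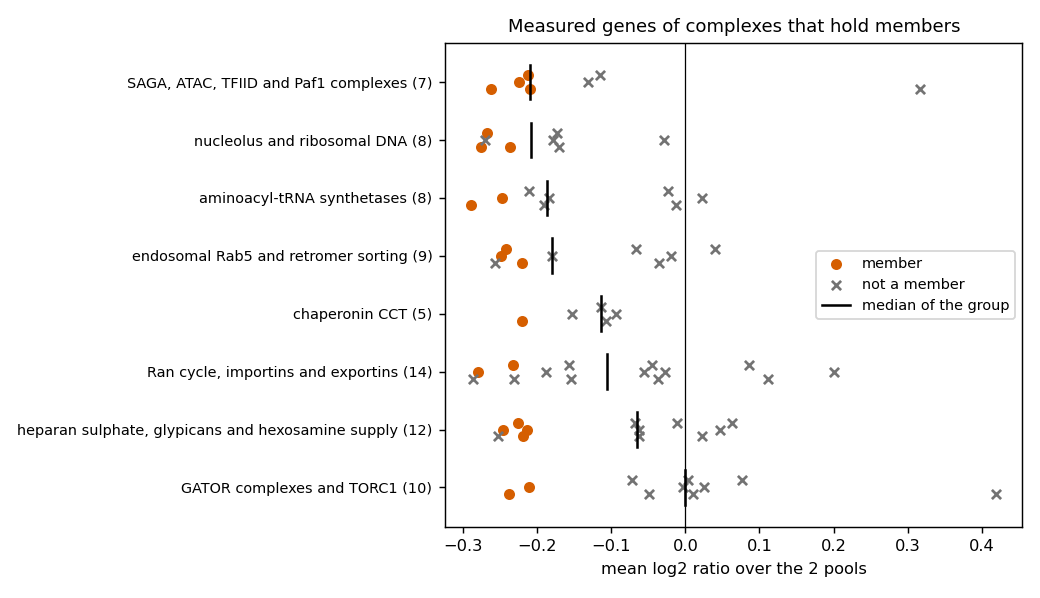
Mean log2 ratio over the 2 pools (horizontal axis) of the measured genes in 8 groups (gene lists) that hold members (rows, measured genes in brackets). Members are orange dots, other genes are grey crosses and the group's median is a black bar. Some measured genes of these complexes are not in the groups. The groups were drawn up after the values were seen and a median includes the members, which the rule placed at -0.2 or lower; the medians run from -0.21 to -0.00036 as deposited and from -0.076 to 0.080 with the reverse-label arrays turned.

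Translation genes included Tgt, which puts the modified base queuosine into transfer RNAs. Tgt stood at -0.12 and -0.69 in pool 1 and -0.36 and -0.032 in pool 3, a mean of -0.30 ± 0.15, and pool 1 in Cy5 was its lowest array. The mitochondrial synthetase TrpRS-m, measured by 6 spots, stood at -0.72 and -0.12 in pool 1 and -0.066 and -0.25 in pool 3, a mean of -0.29 ± 0.15 and -0.14 without the Cy3 array of pool 1. alpha-PheRS, a subunit of phenylalanyl-tRNA synthetase, had a mean of -0.25 (range -0.43 to -0.10). Its partner subunit beta-PheRS had -0.21, with 0.055 on 1 array. Of 8 measured aminoacyl-tRNA synthetases in a list of 36 drawn up after the values were seen, 7 had a mean below 0, among them CysRS (-0.19), LeuRS (-0.18) and IleRS (-0.012). Their median of -0.19 was -0.15 and -0.051 without the Cy3 and Cy5 arrays of pool 1 and -0.17 and -0.15 without those of pool 3. Of the 6 outside the 56, 5 lay below 0 as deposited, with a median of -0.10, and LeuRS-m stood above 0 at 0.023. Turned, none of these 6 lay below 0, and over the list 1 of 8 means lay below 0 with a median of 0.060.

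Of genes of messenger RNA, smg (Smaug), which represses and destabilises messenger RNAs in the egg, had a mean of -0.25 (range -0.66 to -0.019) and Upf3, of nonsense-mediated decay, -0.23 (range -0.29 to -0.085). The other Upf genes, Upf1 and Upf2, had 0.034 and -0.094. Arglu1, a splicing cofactor in humans, had a mean of -0.21 (range -0.37 to -0.054). In the list of 200 genes of RNA splicing, processing and export 46 were measured and 31 lay below 0, with a median of -0.040, 0 past limma and 2 at an unadjusted p under 0.05. The RNA list's median was -0.026 and -0.019 without the Cy3 and Cy5 arrays of pool 1 and -0.026 and -0.039 without those of pool 3, and turned 24 of 46 means lay below 0 with a median of -0.0061.

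Protein handling genes came next. Ublcp1, a phosphatase of the proteasome in humans, stood at -0.12 and -0.45 in pool 1 and -0.31 and -0.31 in pool 3, a mean of -0.30 ± 0.15 and 0.083 turned, with 3 arrays at -0.31 or lower. Prosalpha4T1, a testis form of a proteasome subunit, had a mean of -0.27 (range -0.50 to -0.071), while Prosalpha4, the general form, had 0.11 and Prosalpha4T2 -0.078. A spotted probe can bind paralogues, so these values may be shared, and the pools were of females, which have no testis. In the list of 148 ubiquitin and proteasome genes 34 were measured and 20 lay below 0, with a median of -0.020 and 0 past limma or at an unadjusted p under 0.05. The ubiquitin list's median was -0.038 and -0.018 without the Cy3 and Cy5 arrays of pool 1 and -0.017 and -0.014 without those of pool 3, and turned 15 of 34 means lay below 0 with a median of 0.024. Srp68, of the signal recognition particle, had a mean of -0.22 (range -0.33 to -0.015). CCT4, of the chaperonin CCT that folds actin and tubulin, had -0.22 (range -0.54 to -0.020), and all 5 measured CCT subunits had a mean below 0 as deposited, the other 4 at -0.15 (CCT5), -0.11 (CCT1), -0.11 (CCT8) and -0.093 (CCT2), each with an array above 0. Turned, CCT4, CCT5 and CCT2 lay above 0 at 0.059, 0.060 and 0.11. The CCT median of -0.11 was -0.17 and -0.15 without the Cy3 and Cy5 arrays of pool 1 and -0.12 and -0.15 without those of pool 3, and turned 2 of 5 means lay below 0 with a median of 0.059.

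In nutrient sensing, 2 of the 3 subunits of GATOR1 met the rule. Iml1 stood at -0.063 and -0.24 in pool 1 and -0.12 and -0.52 in pool 3, a mean of -0.24 ± 0.15, and Nprl2 at -0.25 and -0.33 in pool 1 and -0.052 and -0.21 in pool 3, a mean of -0.21 ± 0.15. The third subunit, Nprl3, stood at -0.13 and -0.20 in pool 1 and 0.31 and 0.049 in pool 3, a mean of 0.010 ± 0.16, so the pools lay on opposite sides of 0. Of the 10 measured genes in a list of 27 for the GATOR complexes and TORC1, drawn up after the values were seen, 5 lay below 0 and the median was -0.00036. That value was -0.014 and -0.015 without the Cy3 and Cy5 arrays of pool 1 and -0.073 and 0.047 without those of pool 3, and turned 3 of 10 means lay below 0 with a median of 0.071. The GATOR2 genes mio, Wdr24 and Nup44A had -0.0036, 0.0029 and -0.049. mTor, the kinase of TORC1, was measured but is not on this list, so the counts and medians leave it out. Its mean was -0.15, with -0.13 in pool 1 and -0.16 in pool 3. Sesn (sestrin), which acts on the same pathway, stood at 0.29 and 0.64 in pool 1 and 0.42 and 0.32 in pool 3, a mean of 0.42 ± 0.15, above 0 on all 4 arrays, and -0.063 turned.

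Lipid and energy genes were few. mag (magro), a gut lipase that splits triglycerides and cholesterol esters, stood at -0.54 and -0.24 in pool 1 and -0.17 and -0.25 in pool 3, a mean of -0.30 ± 0.15 and -0.056 turned. Its Cy3 array of pool 1 was the lowest and the other 3 lay at -0.25 to -0.17. Acat1, a mitochondrial thiolase, stood at -0.17 and -0.32 in pool 1 and -0.17 and -0.16 in pool 3, a mean of -0.21 ± 0.15. Gpo3, of the glycerophosphate oxidase family, had a mean of -0.23 (range -0.44 to -0.13). Hmgs, which uses acetoacetyl-CoA for isoprenoid synthesis, had a mean of -0.23 with 2 arrays above 0.

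The remaining genes act in endosomes, on DNA, in centrioles or in no role stated here. Rbsn-5, an effector of Rab5, stood at -0.0069 and -0.69 in pool 1 and -0.17 and -0.12 in pool 3, a mean of -0.25 ± 0.15 and -0.077 without the Cy5 array of pool 1. Snx27, a retromer adaptor, had a mean of -0.24 (range -0.37 to -0.035) and Wdr81, an endosomal protein in humans, -0.22 (range -0.38 to -0.042). In a list of 21 genes of Rab5 and retromer sorting, drawn up after the values were seen, 9 were measured and 8 lay below 0, among them Pi3K59F (-0.26) and Vps29 (-0.18), with Snx21 at 0.039. The endosomal list's median of -0.18 was -0.0044 and -0.13 without the Cy3 and Cy5 arrays of pool 1 and -0.16 and -0.16 without those of pool 3, and turned 6 of 9 means lay below 0 with a median of -0.076. The Rab5 pathway genes Rabex-5 (0.019) and Rbpn-5 (-0.20) were measured but are not on this list. The DNA helicase Pif1 had a mean of -0.25 (range -0.38 to -0.089), ana2, needed for centriole duplication, -0.21 (range -0.49 to -0.098) and Osi14, of the Osiris family, -0.25 (range -0.56 to -0.062), where Osi6 had 0.28. Of sofe and blo, named here with no role, sofe stood at -0.31 and -0.41 in pool 1 and -0.20 and -0.17 in pool 3, a mean of -0.27 ± 0.15, and blo at -0.20 and -0.35 in pool 1 and -0.20 and -0.33 in pool 3, a mean of -0.27 ± 0.15. Both lay at -0.17 or lower on every array.

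The mean of -0.2 does not separate the genes sharply. Just inside it lay Acat1 (-0.21), dati (-0.20) and nrv3 (-0.20), and just outside, also below 0 on all 4 arrays, Dif (-0.20), Nt5a (-0.20) and Rif1 (-0.19). Below 0 on all 4 arrays there were 106 of the 1372 genes, 50 of them with a mean above -0.2. With any 1 array left out, 14 of the 56 genes kept a mean of -0.2 or lower: sphe, Mip, sofe, Kdm4A, Gyc89Da, blo, Rcc1, Liprin-alpha, Ada2b, mag, indra, Ublcp1, Nopp140 and JhI-21. The other 42 were above -0.2 in at least 1 of these 4 readings, the nearest to 0 being -0.077.

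None of the 56 genes had another of them as a measured neighbour. In the gene order of NCBI RefSeq (Release 6 assembly), used here for neighbours only, 512 adjacent pairs of protein-coding genes had both genes measured, and 0 of these pairs joined 2 of the 56. Of 19 measured neighbours of the 56 genes, 10 had a mean below 0, with a median of -0.010. Tissue markers were thinly covered. Muscle markers had a median of 0.35 with 1 of 7 below 0 (-0.0082 and 4 of 7 turned). The ovary and yolk markers yl and exu lay at -0.013 and 0.22, with a turned median of 0.15. The fat body marker apolpp, the only one of 4 measured, lay at -0.54 as deposited and 0.017 turned. Whether a different share of muscle or fat body in the pools contributed to the ratios was not tested.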

How the data were processed

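Drosophila RNA was compared on 4 spotted 2-colour arrays (2 pools, each with a dye swap), and the 2 arrays of a pool were counted as 1 replicate. The log2 ratios are the values the authors deposited, 1 per spot; log base (taken as 2), numerator, scanner, background correction, normalization and spot filters are not given in the sources used here. Signal was not used, so precision is set by how few arrays there are, and p-values cover the spread between 2 pools, which may be technical. Arrays were centred on their medians. Spots with 1 symbol in the platform annotation (5666; 152 had several and 11078 none) were averaged per gene and array; gene numbers of all 2377 genes matched RefSeq with 0 symbols changed. The other spots stayed single, giving 13607 features. These were tested against 0 with lmFit and eBayes of limma 3.58.1 (R 4.3.3), Benjamini-Hochberg at 0.05. The fit had 1 residual and 8.19 prior degrees of freedom. It was tested on simulated data with changes far larger than the means of the 56, which does not cover changes of their size. Tables were made with Python 3.11.15.

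All 56 members are named. Values on all arrays are given for the 12 lowest means and for genes at -0.15 or lower on every array. They are also given for the 5 narrowest and 5 widest ranges, and for members of the wider gene-family lists that hold 2 or more. From each such list up to 5 genes outside the 56 are named, from the low and high ends of the means. From the lists of complexes, drawn up after the values were seen, only some genes are named. Some members of these complexes are given with a range only. Members and gene lists were chosen with earlier results of these data known. Alternatives were the spot median, no centring, equal spread, reverse-label arrays turned, each array left out and the replicate block; turned and left-out values of the lists with fewer than 2 members and of the complexes were added after seeing the data. No sequences were used here.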

Additional observations from a re-analysis of the deposited data

Results flagged for a closer look

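In 5 of the 56 genes, 1 array lay far from the other 3 by a fixed critical value for 4 values (Dixon's). Chance gives about 1 in 20 for values taken at random, which does not hold here, since the rule chose the members on these same 4 values. On the Cy5 array of pool 3 indra stood at -0.41 (others -0.23 to -0.21). On the Cy3 array of pool 3 Gpo3 stood at -0.44 (others -0.18 to -0.13), and on the Cy3 array of pool 1 ana2 stood at -0.49 (others -0.13 to -0.098). On the Cy5 array of pool 1 dlp stood at -0.37 (others -0.19 to -0.16) and Acat1 at -0.32 (others -0.17 to -0.16). The array apart was the lowest in each of the 5, which the rule largely fixes, since it bounds the other side at 0.

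Over all 142 genes compared this way, members and others, 10 had such an array; many of the others were also named for a high or low mean. The 5 that are not of the 56 were Dif at -0.43 on the Cy3 array of pool 1 (others -0.16 to -0.11) and 4 genes on the Cy5 array of pool 1: MKP-4 at -2.81 (others -0.0998 to 0.12), botv at -0.21 (others -0.025 to -0.0063), Hs6st at -0.20 (others 0.038 to 0.070) and Fs(2)Ket at 0.14 (others -0.27 to -0.24).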

How the results depend on the processing

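The rule found 56 genes also with the spot median or with genes of 2 or more spots only, 57 without centring and 56 with arrays scaled to equal spread, the last sharing 55 with the 56. With a mean of -0.3 or lower it found 6. With the reverse-label arrays turned it found 44, sharing 0, and the median over the 56 became 0.046 in place of -0.25. Leaving out an array asks for 3 signs in place of 4 and gave 81 to 104 genes: 104 without the Cy3 array of pool 3, 97 without the Cy5 array of pool 1, 94 without the Cy3 array of pool 1 and 81 without the Cy5 array of pool 3, sharing 46, 35, 43 and 41 with the 56. The median over the 56 then lay between -0.28 and -0.22, and for 22 of the 56 genes dropping some array changed the mean more than 1.5-fold. Features below 0 past limma numbered 2, but 6 with equal spread, 0 turned (323 at an unadjusted p under 0.05), 1 with named genes tested alone, 4 with the 4 arrays and the replicate block, and 0 to 3 without 1 array (0 without the Cy3 array of pool 3, with 342 at an unadjusted p under 0.05). None of these calls was among the 56. Arrays of 1 pool had an estimated correlation of -0.244 in the block fit. The cause of these changes was not tested.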

Other observations

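The genes with the lowest means of the table were not among the 56. The means of the 56 ran from rank 23 to rank 236, counted from the lowest, of 2377 named genes, and 72 characterised genes with a mean of -0.2 or lower were left out because they lay above 0 on at least 1 array. The lowest of these means came mainly from 1 array each. wech had a mean of -2.88 with -11.44 on the Cy5 array of pool 3 and its other arrays between -0.35 and 0.17. Alg13 had -1.79 with -6.71 on the Cy5 array of pool 1, and Nup35, a nuclear pore gene, -1.60 with -5.10 on the Cy5 array of pool 3. Nup35 was also low on the Cy3 array of pool 1, at -1.27. JMJD6 had -0.92 with -3.66 on the Cy5 array of pool 1.

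Genes named only by CG plus digits met the same values in 48 of 913 cases. In the lists of the wider gene families, cytoskeleton and motor genes had 8 of 29 means below 0 (median 0.054) as deposited, G protein-coupled receptors and their signalling 6 of 19 (median 0.061), and cell adhesion and guidance 10 of 26 (median 0.012). Turned, the cytoskeleton list had 14 of 29 (median 0.0012), the receptor list 10 of 19 (median -0.0088) and the adhesion list 10 of 26 (median 0.029). The cytoskeleton median was 0.10 and 0.049 without the Cy3 and Cy5 arrays of pool 1 and 0.063 and 0.073 without those of pool 3. The receptor median was 0.052 and 0.050 without the Cy3 and Cy5 arrays of pool 1 and 0.019 and 0.12 without those of pool 3, and the adhesion median 0.0018 and 0.058 without the Cy3 and Cy5 arrays of pool 1 and 0.042 and 0.026 without those of pool 3. None of the genes in these 3 lists was among the 56. The receptor list does not hold ric8a, one of the 56, which acts on G protein alpha subunits. No gene in the 3 lists passed limma in either direction, with 2, 1 and 0 at an unadjusted p under 0.05.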
